A study of Mus musculus with 36 samples.

Results

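TBP, the TATA-binding protein, was mapped at the tRNA genes of mouse embryonic stem (ES) cells that lie outside chromosome 13. In lists of TBP peak summits (the point of strongest signal in a peak), a summit was taken when its nearest RefSeq gene end was within 500 bp and belonged to a nuclear tRNA gene. The 4 lists held 309 such summits of 9335 in all, and summits within 250 bp of each other merged into 115 sites. The lists had 76 of 2666 summits (2.85%) in RT7 EtOH, 68 of 1379 (4.93%) in RT7 4-OHT, 77 of 3102 (2.48%) in RT10 EtOH and 88 of 2188 (4.02%) in RT10 4-OHT. No list had more than 1 summit in a site.

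TBP is a shared subunit of the factors that start transcription by each nuclear RNA polymerase. At tRNA genes it works within TFIIIB, together with BRF1 and BDP1: TFIIIC recognises elements inside the gene, the A box and the B box, and places TFIIIB just upstream, where it recruits RNA polymerase III. At protein-coding promoters TBP comes instead within TFIID, whose other subunits are the TBP-associated factors (TAFs), among them TAF7 and TAF10.

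The series profiled TBP, TAF7, TAF10 and TAF12 in 36 CUT&RUN libraries, a method in which an antibody tethers a nuclease that cuts out the bound DNA. RT7 cells were R26CreERT2/+;Taf7flox/flox and RT10 cells R26CreERT2/+;Taf10flox/flox. Both lines thus carried a Cre recombinase made active by 4-hydroxytamoxifen (4-OHT), expressed from the Rosa26 locus. Cells of each line received ethanol (EtOH), which leaves the floxed alleles in place, or 4-OHT, which is given to delete them, from day 1 to day 3 of culture. Each line and treatment had 2 TBP libraries and 1 IgG library, and 1 list of TBP summits over IgG. As there was 1 list per group, no test of the treatment was possible, and each deletion is represented by 1 cell line. TAF7 and TAF10 binding was not analysed here, so the lists themselves do not check the deletion. Of 12 ES cell genes, 7, 4, 9 and 4 had a summit within 500 bp of an end in RT7 EtOH, RT7 4-OHT, RT10 EtOH and RT10 4-OHT, while the share over all RefSeq genes was 3.29%, 1.93%, 3.67% and 2.53%. Of 5 fibroblast genes, Fn1 alone had a summit, in both EtOH lists. The read depth behind the lists is unknown, and intervals below are exact Clopper-Pearson 95% intervals that cover counting error only.

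Sequences were read at a few tRNA genes to find their internal elements and strand, and so the side on which summits lay. They were taken from RefSeq promoter windows of neighbouring genes (assembly GRCm38.p6, the same as mm10), which covered 2 of the 298 tRNA genes in full. The strand of a tRNA gene is not in the gene table and was read from the B box core GGTTCGA, searched on both strands. These letters stood in 299 of 32851 promoter windows of 300 bases (0.910%). The A box letters searched were TGGCNNA, present in 45.0% of windows. The first gene below is the threonine gene n-TTagt9 (chr7:35234770-35234843, minus strand) and the second the arginine gene n-TRtcg5 (chr7:79466419-79466491, plus strand). Capitals mark the A box and B box letters, in this order.
n-TTagt9: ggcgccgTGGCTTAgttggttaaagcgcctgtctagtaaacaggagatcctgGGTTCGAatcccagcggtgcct
n-TRtcg5: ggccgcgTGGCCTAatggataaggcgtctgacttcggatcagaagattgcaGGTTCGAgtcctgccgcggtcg
Both genes held both elements, and they differed in TBP summits. The gene n-TTagt9 had a summit in all 4 lists (score, −log10 q, in brackets), which scored below the median of its list except in RT10 EtOH. It lay 115 bp upstream of its start in RT10 EtOH (9.74), 129 bp upstream in RT10 4-OHT (2.69) and 246 bp upstream in RT7 4-OHT (2.30). In RT7 EtOH it lay 36 bp downstream of the gene's end (3.83). The 2 RT10 summits also lay 144 and 158 bp upstream of the start of the neighbour Gm38989. To which of the 2 genes they belong was not tested. No list had a summit within 500 bp of n-TRtcg5.

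The asparagine gene n-TNgtt7 is shown because its site lay downstream of the gene in every list. Its last 34 bases and the DNA behind them (chr10:80249199-80249248, plus strand) belong to the promoter window of Ndufs7, a gene for a subunit of mitochondrial complex I. Capitals mark the B box and the run of T at which RNA polymerase III ends transcription, which began 11 bases after the gene.
n-TNgtt7 and downstream: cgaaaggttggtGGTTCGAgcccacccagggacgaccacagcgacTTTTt
The summits lay 11 bp from the gene's end in RT7 EtOH, 22 bp in RT10 EtOH, 39 bp in RT7 4-OHT and 55 bp in RT10 4-OHT. The RT7 EtOH summit falls inside the printed stretch and the others just behind it. In the gene table Ndufs7 starts at position 80249105, before the tRNA gene, so n-TNgtt7 lies within its annotated extent. The promoter window is set on another Ndufs7 start, at 80249449, and the 4 summits lay 162 to 206 bp upstream of it. The letters TATAAA occurred once in the 250 bases before that start, 65 to 109 bp from the summits. Whether these summits belong to the tRNA gene or to Ndufs7 was not tested. The letters TTTT occurred in 78.0% of promoter windows, so their presence there is common.

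Summits sat beside tRNA genes and seldom on them. The median distance from a summit to the gene end was 181 bp (quartiles 134 and 241 bp) over the 309 summits. Of these, 246 (79.6%) lay at least 100 and under 300 bp from the gene end, against 52.4% of summits nearest to a protein-coding gene end. Only 4 of the 309 were inside a tRNA gene. By list the median was 194 bp in RT7 EtOH, 193 bp in RT7 4-OHT, 166 bp in RT10 EtOH and 184.5 bp in RT10 4-OHT. Only 14 of the 309 (4.53%) were closer than 50 bp, against 463 of 3101 (14.9%) summits nearest to a protein-coding gene end. The medians were alike across lines and treatments. At a fixed gene the side of each list's highest-scoring summit also recurred. Of 81 genes nearest in at least 2 lists, 71 had it on 1 side, or inside, in every such list (87.7%, 78.5 to 93.9). Weaker summits of the same list were left out of this count. At n-TKctt29, for example, both RT7 lists had a weaker one on the other side. Among lone genes, with no other tRNA gene within 5 kb, this held for 29 of 31. Which side is upstream was not resolved for most of them, as strand was read for few genes.

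**Figure D1:**
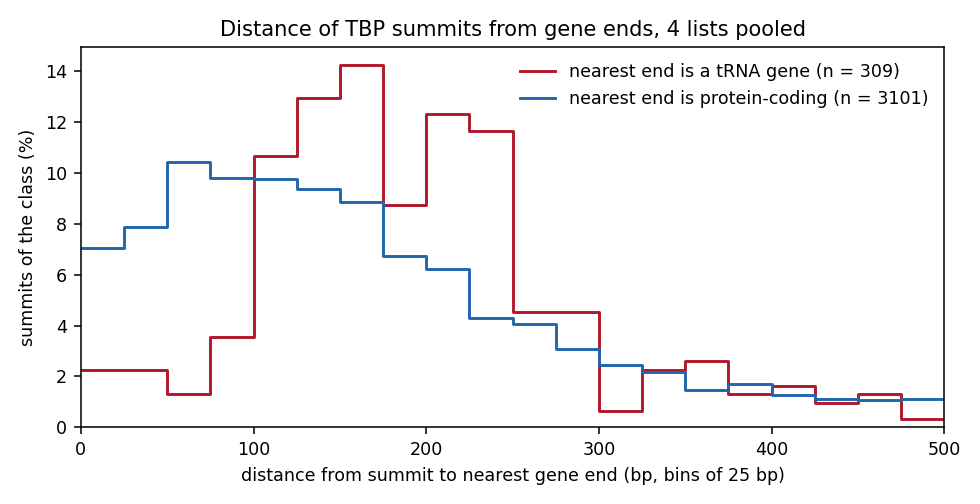
Distance from a TBP summit to the nearest gene end (bp, bins of 25 bp) against the percentage of summits of each class, 4 lists pooled; red, nearest end a tRNA gene outside chromosome 13 (n = 309), blue, nearest end protein-coding (n = 3101). The tRNA gene summits had a median of 181 bp and few values below 50 bp, while the protein-coding ones had a median of 137 bp.

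The selection was sharp at 500 bp for few members. Just inside lay a summit 481 bp from the proline gene n-TPtgg4 (RT10 EtOH, score 36.0), 1 at 462 bp from n-TLtag2 (RT7 EtOH, 3.01) and 1 at 459 bp from n-TGgcc5 (RT7 EtOH, 3.57). Just outside lay summits 506 bp from n-TTtgt2 (RT7 EtOH, 33.4), 512 bp from n-TTcgt5 (RT7 EtOH, 3.01) and 552 bp from n-TRccg2 (RT7 4-OHT, 2.30). The score is the authors' −log10 q of the peak summit. It is used here only to describe and rank summits within a list.

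Of the 298 nuclear tRNA genes outside chromosome 13, 129 (43.3%, 37.6 to 49.1) had a summit of any kind within 500 bp in at least 1 list and 77 (25.8%, 21.0 to 31.2) in all 4. Over all 49943 RefSeq genes these shares were 4.74% and 1.39%. By list, 104 genes had a summit in RT7 EtOH, 98 in RT7 4-OHT, 104 in RT10 EtOH and 109 in RT10 4-OHT, or 34.9%, 32.9%, 34.9% and 36.6%. The share over all RefSeq genes, 3.29%, 1.93%, 3.67% and 2.53% in the same order, was lower in each list. The tRNA gene share thus stayed between 32.9% and 36.6% in lists whose lengths ran from 1379 to 3102. At the remaining 169 genes no list had a summit. tRNA genes of chromosome 13 had a summit more often, with 99 of 105 (94.3%) in at least 1 list and 55 (52.4%) in all 4. Here and by isotype, chromosome and class below, a summit within 500 bp of several tRNA genes counted for each of them. The intervals do not allow for this. Counted at the nearest gene only, 103 of the 298 genes (34.6%, 29.2 to 40.3) had a summit in at least 1 list. In all 4 lists it was 44. How reads that map to several near-identical tRNA genes were treated is not stated, and its part in which genes lack a summit was not tested.

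The share of genes with a summit in at least 1 list ran from 10.7% for cysteine to all genes for tyrosine and phenylalanine, by isotype, the set of tRNA genes for 1 amino acid, which the gene symbols name by letter and anticodon. All 4 tyrosine genes had a summit within 500 bp in all 4 lists, some of them shared with a neighbouring tRNA gene. As the nearest gene to a summit, n-TYgta10 was found in 4 lists, n-TYgta1 in 3, n-TYgta9 in 2 and n-TYgta2 in 1. All 5 phenylalanine genes had one in at least 1 list and 3 of them in all 4. The proline genes followed with 12 of 15 in at least 1 list and 7 in all 4, then threonine with 8 of 10 and 4, serine with 7 of 10 and 5, and arginine with 11 of 16 and 6. At the other end stood cysteine with 6 of 56 genes, aspartate with 3 of 13, asparagine with 4 of 13 and glycine with 8 of 26. Few genes stand behind most shares: the interval was 39.8% to 100% for tyrosine and 4.03% to 21.9% for cysteine.

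Cysteine genes split by chromosome. Of the 48 on chromosome 6, 1 had a summit, whereas 4 of the 5 on chromosome 11 did, 3 of them in all 4 lists. Chromosome 6 as a whole had 3 of 53 tRNA genes with a summit and chromosome X 1 of 17, against 10 of 10 on chromosome 19, 11 of 12 on chromosome 14, 7 of 8 on chromosome 2 and 34 of 47 on chromosome 11. The 3 genes on chromosome 6 had their summit in every list. Within an isotype the anticodons also differed. Leucine genes had a summit in at least 1 list at all 3 AAG, both TAA and all 3 TAG genes but at 2 of 9 CAG genes.

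Methionine and valine genes differed between the lists. Methionine genes numbered 5, of which 2 had a summit in RT7 EtOH, 0 in RT7 4-OHT, 3 in RT10 EtOH and 3 in RT10 4-OHT. Valine genes numbered 12, with 4, 4, 1 and 3 in the same order. Tyrosine (4 in each), aspartate (3 in each) and asparagine (4 in each) did not vary. With counts this small and 1 list per group, the lists could not be separated.

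**Figure D2:**
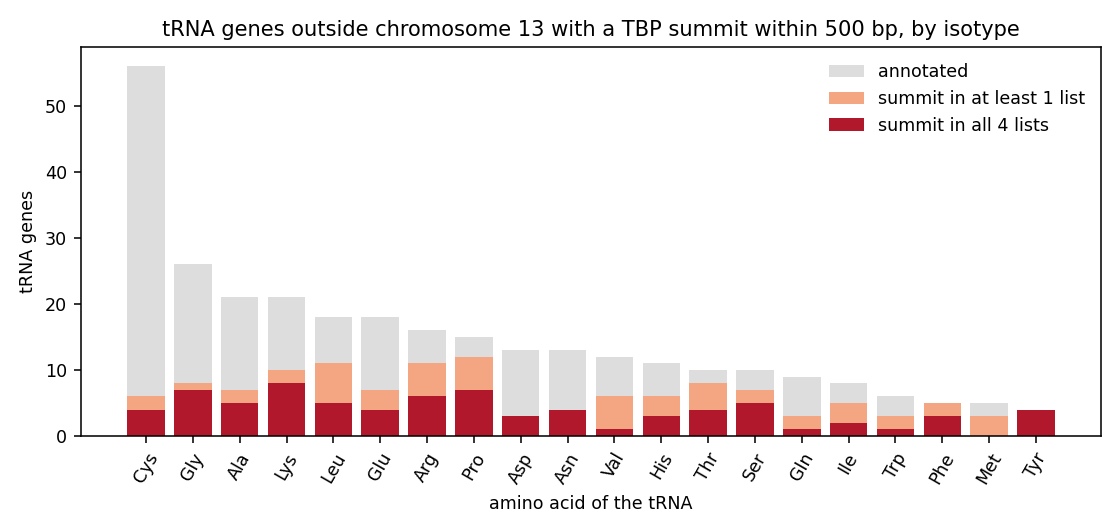
Number of tRNA genes outside chromosome 13 (y axis) for each amino acid (x axis); grey bars are annotated genes, orange bars genes with a TBP summit within 500 bp in at least 1 list, red bars genes with one in all 4 lists. Cysteine has 56 annotated genes and 6 with a summit, while all 4 tyrosine genes had one in every list.

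The highest-scoring sites were shared by all 4 lists. The tryptophan gene n-TWcca7 (chr11:69041826-69041897) led with scores of 78.2, 52.5, 79.7 and 85.6 in RT7 EtOH, RT7 4-OHT, RT10 EtOH and RT10 4-OHT. It ranked 11, 12, 19 and 10 among all summits of its list. The site between the lysine gene n-TKctt14 (chr17:23547360-23547432) and the proline gene n-TPtgg6 had scores of 52.2, 68.8, 69.2 and 75.7 in the same order and ranks of 35, 7, 25 and 12. These 2 sites were among the 5 highest tRNA gene sites of every list.

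Below them came a second proline gene, n-TPtgg4 (chr11:48856280-48856351), with scores of 58.8, 36.0, 36.0 and 66.3 and ranks of 22, 26, 125 and 17. The phenylalanine gene n-TFgaa7 (chr5:125406055-125406127) had 51.8, 41.7, 40.9 and 51.2, with ranks of 36, 16, 93 and 38. Both ranked lowest in RT10 EtOH, where the summit also lay farther from the gene, at 481 and 409 bp. The lysine gene n-TKctt29 (chr19:12006039-12006111) had 40.2, 30.4, 74.3 and 45.6 and ranks of 70, 39, 21 and 51. The histidine pair n-THgtg3 and n-THgtg5 on chromosome 2 had 39.6, 29.2, 63.0 and 49.7 at ranks of 78, 47, 33 and 41. Sites of glycine (n-TGccc7, ranks of 57, 71, 90 and 30), alanine and tyrosine (n-TAagc15 and n-TYgta9, 86, 30, 47 and 49) and tyrosine (n-TYgta10, 52, 50, 151 and 91) completed the leading group of sites found in every list by their tRNA gene summits.

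tRNA gene summits scored high within their own lists. Their median percentile was 82.0 in RT7 EtOH, 73.7 in RT7 4-OHT, 83.7 in RT10 EtOH and 81.0 in RT10 4-OHT, where 100 is the top of the list. Summits nearest to a protein-coding end had medians of 52.8 to 54.4. The 100 highest summits of each list included 12, 14, 10 and 22 of the tRNA gene summits. The lowest members scored 1.51, 2.30, 2.15 and 2.11, so the class also reached nearly to the floor of each list.

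By their tRNA gene summits, 46 of the 115 sites (40.0%) were in all 4 lists, 21 in 3, 14 in 2 and 34 in 1. Site counts by list, treatment or line, here and below, were not made over all TBP sites. Counted over genes, 2365 RefSeq genes had a summit within 500 bp of an end in at least 1 list and 693 in all 4. For the tRNA genes outside chromosome 13 these counts were 129 and 77. Part of the spread of sites over the lists came from the assignment to the nearest gene end. At the isoleucine gene n-TIaat16, RT10 EtOH (69.5) and RT10 4-OHT (33.3) had a summit assigned to the tRNA gene, and both RT7 lists had a summit 10 and 14 bp away that was nearest to Plekhg2. At the glutamine gene n-TQctg9 the RT7 summits were assigned to the tRNA gene (30.7 and 20.4) and the RT10 summits, 71 and 74 bp away, were not; Rab11a lies there. At the serine gene n-TSgct7, beside Knl1, RT10 4-OHT alone had the assigned summit (49.9), with summits of the other lists 46 to 96 bp away. These sites look as if they belonged to 1 line or list and do not.

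The DNA at these summits, and at 1 summit of the methionine gene n-TMcat11, is printed because each lies between a tRNA gene and a protein-coding neighbour. Each line gives 61 bases around 1 summit on the strand of the protein-coding gene, with the 11 bases centred on the summit in capitals: n-TIaat16 in RT10 EtOH and RT10 4-OHT (chr7:28372816-28372876, minus strand, 184 bp upstream of Plekhg2), n-TQctg9 in RT7 EtOH (chr9:64737885-64737945, minus strand, 159 bp upstream of Rab11a), n-TSgct7 in RT10 4-OHT (chr2:119046907-119046967, plus strand, 182 bp upstream of Knl1) and n-TMcat11 in RT10 EtOH (chr3:90476005-90476065, plus strand, 166 bp upstream of Ilf2).
n-TIaat16 and Plekhg2: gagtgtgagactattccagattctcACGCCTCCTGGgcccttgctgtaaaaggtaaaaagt
n-TQctg9 and Rab11a: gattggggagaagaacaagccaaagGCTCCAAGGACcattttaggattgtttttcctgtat
n-TSgct7 and Knl1: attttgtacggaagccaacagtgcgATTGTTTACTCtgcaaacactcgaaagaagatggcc
n-TMcat11 and Ilf2: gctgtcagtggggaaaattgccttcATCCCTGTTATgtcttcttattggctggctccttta
The letters TATAAA were searched on both strands in the 250 bases before each start. They occurred for Plekhg2, 59 bp from the summit, and not for Rab11a, Knl1 or Ilf2. Over all promoter windows they occurred in 13.6%, counted in 300 bases each, which include 50 bases after the start.

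Counting any summit within 250 bp as presence, 51 sites (44.3%) were in all 4 lists, 21 in 3, 11 in 2 and 32 in 1. The median of the mean score percentile was 89.7 for the 51 sites in all lists, 54.3 for the 21 in 3 lists, 37.2 for the 11 in 2 and 56.7 for the 32 in 1. Sites in every list were thus also those that scored high, while sites of 1 list covered low and high scores. Clustered genes held 24 of the 32 sites in 1 list and 32 of the 51 in all 4 lists.

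**Figure D3:**
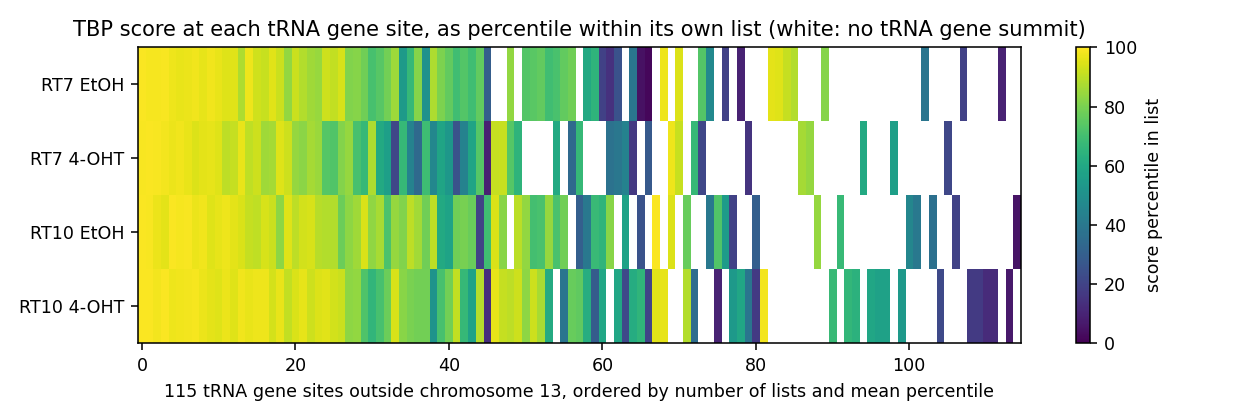
Each column is 1 of the 115 tRNA gene sites outside chromosome 13 and each row 1 list; colour gives the score percentile of the assigned summit within its list (0 to 100), and white means no summit assigned to a tRNA gene. Columns run from the 46 sites in all 4 lists to the 34 in 1 list, and the sites in all 4 lists carry most of the high percentiles.

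By the same count of any summit, 11 sites lacked a summit in RT7 4-OHT alone, 5 in RT10 EtOH alone, 4 in RT7 EtOH alone and 1 in RT10 4-OHT alone. RT7 4-OHT was also the shortest list, with 1379 summits. Only 38.7% of all RT7 EtOH summits had an RT7 4-OHT summit within 250 bp, against 48.1% for RT10, so missing summits were common beyond tRNA genes. With the lists cut to about equal lengths (1289 to 1379 summits) the counts were 4, 3, 2 and 0. The 11 sites missing from RT7 4-OHT included 2 of the 3 methionine genes with a summit. At n-TMcat16 the scores were 11.2 in RT7 EtOH, 9.80 in RT10 EtOH and 26.5 in RT10 4-OHT, and the nearest RT7 4-OHT summit was 2708108 bp away. At n-TMcat11, next to Ilf2, they were 10.4, 16.0 and 14.5, with the nearest RT7 4-OHT summit 262595 bp from the site. The glutamate gene n-TEttc6 had 11.5, 10.2 and 17.98 and its nearest RT7 4-OHT summit was 317813 bp away. At these 3 lone genes no shifted summit stood in for the missing one.

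By any summit within 250 bp, 1 of the 115 sites was in both EtOH lists only and 2 were in both 4-OHT lists only. No such count was made over all TBP sites. The histidine gene n-THgtg2 had a summit in both EtOH lists (3.01 in RT7, 6.77 in RT10) and in neither 4-OHT list. In the other direction, the leucine gene n-TLaag6 (7.70 in RT7 and 4.35 in RT10) and a second site at the lysine gene n-TKctt25 (2.78 and 4.53) had summits in both 4-OHT lists only. The percentiles of these summits within their lists were 19.3 and 55.1 for n-THgtg2, 66.9 and 35.6 for n-TLaag6 and 15.1 and 38.8 for n-TKctt25. At n-TKctt25 RT10 EtOH had a summit on the other side of the gene (4.93), 490 bp away, and the gene itself had a summit within 500 bp in all 4 lists. A further histidine gene, n-THgtg6, had tRNA gene summits in both EtOH lists only (5.57 and 4.93), with another RT10 4-OHT summit 192 bp away.

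By the same count, presence followed the line at 3 sites for RT10 and 1 for RT7, again without a count over all TBP sites. Sites in both RT10 lists and neither RT7 list were those of the methionine gene n-TMcat17 (12.1 in EtOH, 20.2 in 4-OHT), the phenylalanine gene n-TFgaa6 (3.23 and 6.33) and the histidine gene n-THgtg1 (4.06 and 2.88). The gene n-TMcat17 lies near Fbxo31, a ubiquitin ligase subunit, and its nearest RT7 summit was 11262 bp away. For RT7 the only such site was a second one at n-TKctt29 (10.4 in EtOH, 3.10 in 4-OHT), 381 bp or more from the RT10 summits.

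Most tRNA gene summits of EtOH cells had a counterpart after 4-OHT. In RT7, where Taf7 was the floxed gene, 53 of 76 EtOH summits found a 4-OHT partner at up to 250 bp (69.7%, 58.1 to 79.8), against 38.7% of all nuclear summits of that list. In RT10, where Taf10 was floxed, it was 64 of 77 (83.1%, 72.9 to 90.7), against 48.1%. Allowing 1000 bp, the shares rose to 84.2% and 97.4%, against 46.0% and 55.6% of all summits. Read from the 4-OHT side, 54 of 68 RT7 summits (79.4%) and 64 of 88 RT10 summits (72.7%) had an EtOH counterpart, against 75% and 68.2% of all. From that side the background lay within the interval of the tRNA gene summits at 250 bp. At 1000 bp it was 94.1% (85.6 to 98.4) against 86.8% of all in RT7 and 94.3% (87.2 to 98.1) against 78.4% in RT10.

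The EtOH lists of the lines, without an induced deletion in either, overlapped to a like extent. Of the RT7 EtOH summits 59 of 76 (77.6%, 66.6 to 86.4) had an RT10 EtOH summit within 250 bp, against 65% of all. Of the RT10 EtOH summits 60 of 77 (77.9%, 67.0 to 86.6) had an RT7 EtOH summit, against 55.7%. Between the 4-OHT lists, 59 of 68 RT7 summits (86.8%, 76.4 to 93.8) had an RT10 partner, against 68.2% of all, and 59 of 88 RT10 summits (67.0%, 56.2 to 76.7) an RT7 partner, against 43%. These comparisons share their lists with those above. The intervals of the EtOH summits kept after 4-OHT overlapped those between the EtOH lists, so at these counts the effect of 4-OHT could not be told from the difference between lines.

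**Figure D4:**
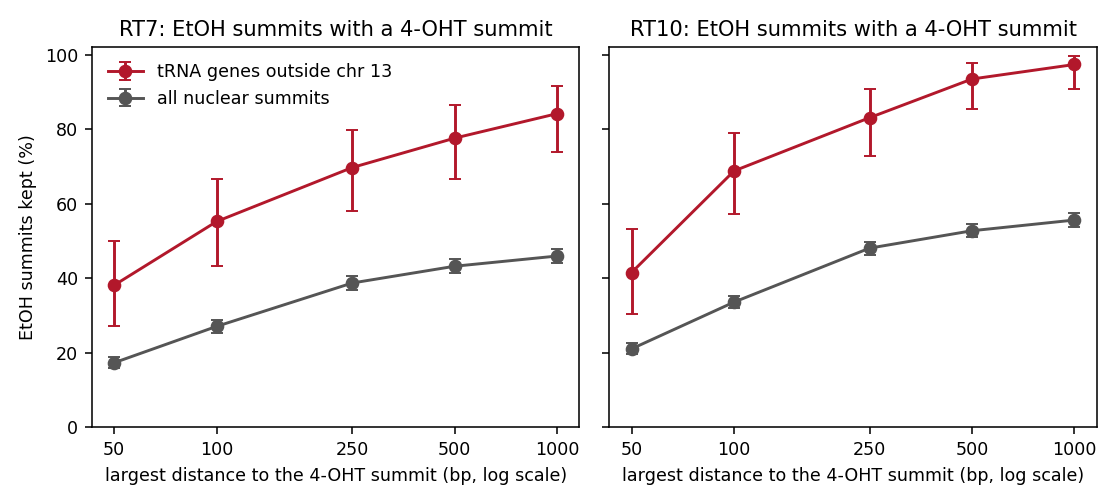
Percentage of EtOH summits with a 4-OHT summit (y axis) within a given distance (x axis, bp, log scale) in RT7 (left) and RT10 (right); red, tRNA genes outside chromosome 13, grey, all nuclear summits, bars are exact 95% intervals. Red lies above grey at every distance shown, reaching 84.2% in RT7 and 97.4% in RT10 at 1000 bp.

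The gap to the background differed with score and list length. Among summits between the 50th and 90th percentile of the EtOH list, 27 of 36 tRNA gene summits of RT7 were kept (75.0%) against 52.5% of all, and 33 of 37 of RT10 (89.2%) against 66.1%. In the top 10% it was 23 of 27 (85.2%) against 92.5% in RT7 and 25 of 28 (89.3%) against 92.2% in RT10, so there the tRNA gene summits were not above the rest. In the lower 50% it was 3 of 13 against 17.3% in RT7 and 6 of 12 against 25.1% in RT10. With lists of about equal length the shares were 79.4% against 60.6% in RT7 and 82.8% against 60.4% in RT10. Chromosome 13 tRNA gene summits were kept at 70.5% and 71.4%.

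Lone and clustered genes gave shares with overlapping intervals. In RT7, 18 of 27 summits at lone genes (66.7%) and 35 of 49 at clustered genes (71.4%) were kept, and in RT10 25 of 30 (83.3%) and 39 of 47 (83.0%). Of the annotated genes, 46 of 118 lone ones (39.0%, 30.1 to 48.4) and 83 of 180 clustered ones (46.1%, 38.7 to 53.7) had a summit in at least 1 list.

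Of the 23 RT7 summits not kept, 11 had a 4-OHT summit within 1000 bp and 12 did not. Of the 13 in RT10, 11 had one and 2 did not. Those 2 were at n-THgtg2 and at the serine gene n-TSgct6 (score 9.15), whose nearest RT10 4-OHT summit was 49581 bp away. The highest-scoring RT7 summits not kept were at clustered genes: n-TSgct3 (40.2, with a 4-OHT summit 369 bp away), n-TVtac1 (34.7, 653 bp) and n-TCgca55 (32.1, 1183 bp). In RT10 they were n-TFgaa7 (40.9, 255 bp), n-TPtgg4 (36.0, 272 bp) and n-TWcca6 (32.5, 427 bp). Each of these 6 high summits thus had a 4-OHT summit within 1183 bp. In dense clusters a moved summit and a lost one could not be told apart from distances alone.

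tRNA genes chained within 5 kb formed 55 clusters outside chromosome 13, of which 29 had a tRNA gene summit and 26, with 92 genes, had none. The largest, with 13 genes, was among those without. The cluster with most sites lay on chromosome 19 (12002236 to 12012338, 8 genes) and held 9 sites. Of these, 2 were in all 4 lists: n-TKctt29 and n-TKctt30, the latter with scores of 32.1, 18.9, 43.5 and 41.3. The other 7 sites were in 1 or 2 lists each by their tRNA gene summits, among them n-TVtac1 in RT7 EtOH alone (34.7) and n-TRtct1 in RT7 4-OHT alone (15.4). Those summits lay 653 bp apart.

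The second cluster, on chromosome 11 (69037003 to 69041897, 7 genes), had 6 sites, with n-TWcca7 the only one in all 4 lists. At the serine gene n-TSaga4, RT7 4-OHT (20.1), RT10 EtOH (31.4) and RT10 4-OHT (37.3) had their summits on 1 side of the gene and RT7 EtOH (19.4) on the other, 306 bp or more away. The proline gene n-TPcgg3 had a summit in RT7 4-OHT alone (14.1). The third, on chromosome 17 (23546476 to 23550335, 4 genes), had 5 sites, of which 3 were in all 4 lists. These were the site of n-TKctt14 and n-TPtgg6, 1 at the arginine gene n-TRcct2 (14.8, 8.71, 17.5 and 15.0) and 1 at the arginine gene n-TRccg2 (33.4, 20.1, 35.3 and 33.1). Of these clusters, that of chromosome 17 had the largest share of its sites in every list.

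**Figure D5:**
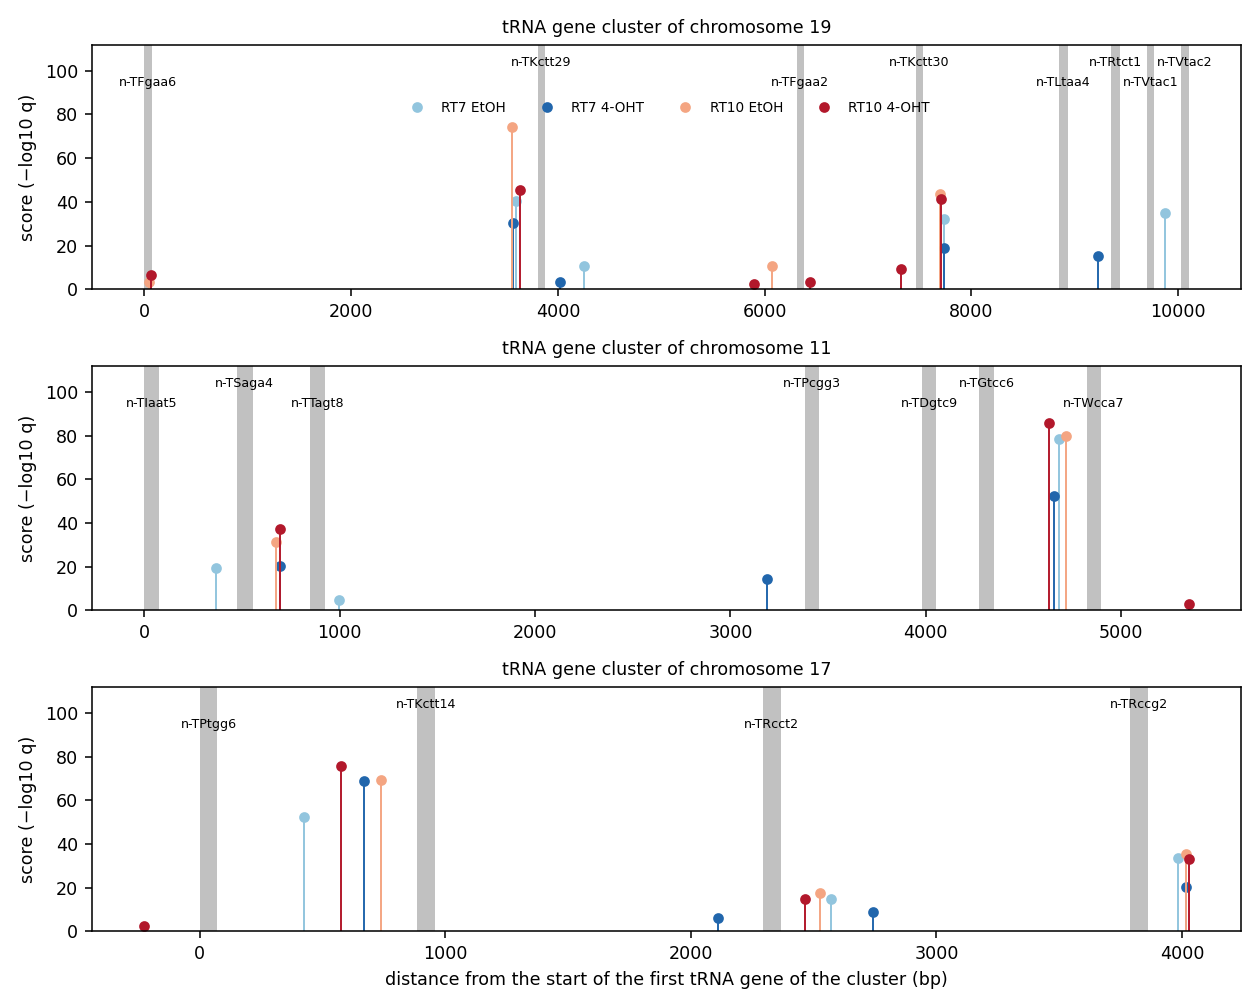
Summits of the 4 lists (points on stems, coloured by list) in the 3 clusters with most sites; x axis, distance from the start of the first tRNA gene of the cluster (bp), y axis, summit score (the authors' −log10 q, to be read within a list), grey bands, tRNA genes. On chromosome 19 the sites at n-TKctt29 and n-TKctt30 have all 4 colours, while n-TVtac1 has RT7 EtOH alone, with a score of 34.7.

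Protein-coding genes lay close to part of the sites. Of the 115 sites, 27 (23.5%) were within 1000 bp of a protein-coding gene end and 58 (50.4%) within 5000 bp, and 21 lay inside another RefSeq gene. tRNA genes with a protein-coding end within 1000 bp had a summit more often: 42 of 48 (87.5%, 74.8 to 95.3) in at least 1 list, against 87 of 250 others (34.8%, 28.9 to 41.1). A summit of the protein-coding promoter can count here, so the genes nearest to a summit were also counted, and were 27 of 48 (56.3%, 41.2 to 70.5) against 76 of 250 (30.4%, 24.8 to 36.5). Over all 21887 protein-coding genes, 7.83% had a summit in at least 1 list. The shares kept after 4-OHT had wide, overlapping intervals for summits near such an end and far from it. In RT7 they were 12 of 17 near (44.0 to 89.7%) and 41 of 59 far (56.1 to 80.8%). In RT10 they were 14 of 17 (56.6 to 96.2%) and 50 of 60 (71.5 to 91.7%).

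For sites in all 4 lists by their tRNA gene summits, protein-coding ends were ranked by distance from the site's highest-scoring summit. The nearest were those of Ndufs7 (166 bp, at n-TNgtt7) and Agbl5, a carboxypeptidase that acts on tubulin (250 bp, at n-TAagc15 and n-TYgta9). After these came Pcgf2, a Polycomb subunit (296 bp, at the asparagine gene n-TNgtt8). Next came Arl5c, a small GTPase (457 bp, at the cysteine gene n-TCgca54), and Mettl26 (554 bp, at n-TGccc7). Counting any summit as presence, Rab11a (159 bp, at n-TQctg9) and Plekhg2 (165 bp, at n-TIaat16) lay nearer than Ndufs7. On that count Knl1 (182 bp, at n-TSgct7) lay nearer than Agbl5. The site of n-TNgtt8 had scores of 33.4, 15.7, 25.2 and 28.5, and that of n-TCgca54 37.5, 26.4, 37.3 and 31.7. The site of n-TNgtt7, whose DNA is printed above, had 9.60, 16.5, 15.8 and 8.46. The scores of these 3 sites lay between the 65th and the 97th percentile of their lists.

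A few of the genes that make and load tRNAs had a TBP summit themselves. Of 36 genes of the RNA polymerase III machinery, 4 had a summit in RT7 EtOH, 2 in RT7 4-OHT, 1 in RT10 EtOH and 1 in RT10 4-OHT, and none in all 4. They were the polymerase subunit genes Polr3d, Polr3e, Polr3gl and Polr2l and the TFIIIC subunit gene Gtf3c6. For Gtf3c6 the scores were 5.57 in RT7 EtOH, 1.84 in RT7 4-OHT and 5.06 in RT10 4-OHT. Of 20 cytoplasmic aminoacyl-tRNA synthetases, which load tRNAs with their amino acids, Farsb had a summit in RT7 EtOH and Lars and Qars in RT10 EtOH. The leucine gene n-TLaag4 lies in the promoter window of Polr3e. The score of 3.23 in RT10 EtOH belonged to 1 summit 129 bp upstream of n-TLaag4, which was counted for both genes, and a second summit lay 442 bp upstream in RT10 4-OHT (6.33). The share of these 36 genes with a summit in any list was 5 of 36, against 7.83% of protein-coding genes.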

How the data were processed

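Reads of mouse ES cell TBP CUT&RUN were processed by the authors with cutadapt 4.0, Bowtie2 2.4.4 on mm10, SAMtools 1.15.1, MACS2 2.2.7.1, bedtools and deepTools, as named without roles or settings per the submitters' processing notes. The deposited value of each summit is a −log10 q over IgG, and each of the 4 lists stands for 2 TBP libraries; the sources do not say whether they were pooled. Title and treatment label disagree for 2 IgG libraries (RT7 EtOH, RT10 4-OHT), which were taken by title.

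Gene ends came from a RefSeq table of GRCm38.p6 (49943 genes on nuclear chromosomes, 403 of them tRNA genes, 298 outside chromosome 13), which gives no strand. Isotypes were read from the symbols. Kept means a summit of the other list within 250 bp. No test was run, as there is 1 list per group. The members and gene lists were chosen with earlier results of these data known. Named sites were the 5 highest per list, sites following treatment or line, the highest per isotype, the 3 clusters with most sites, those at the 500 bp limit and the 5 nearest to protein-coding ends; others named were chosen after their values were seen. Counting any summit within 250 bp as presence was added after seeing the data. Alternatives were other distances, a score of at least 10 and lists of equal length. The matching code was tested on simulated data. Python 3.11.15, NumPy 2.4.6, pandas 2.3.3, SciPy 1.17.1 and matplotlib 3.10.9 were used.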

Additional observations from a re-analysis of the deposited data

Results flagged for a closer look

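The count of tRNA gene summits outside chromosome 13 moved in opposite directions after 4-OHT in the 2 lines, and this difference was not tested, as each group has 1 list. In RT7 the 4-OHT minus EtOH difference was -8 summits and -8 sites, and in RT10 it was 11 summits and 11 sites. Counted over genes with any summit within 500 bp, the difference was -6 in RT7 and 5 in RT10. The lists as a whole became shorter after 4-OHT in both lines, from 2666 to 1379 summits in RT7 and from 3102 to 2188 in RT10.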

How the results depend on the processing

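No paired analysis was possible because each line and treatment has 1 list that carries no replicate number; leaving out a replicate was not possible for the same reason. Shared distance moved the share of EtOH summits kept: to 55.3% (RT7) and 68.8% (RT10) at 100 bp, 93.5% (RT10) at 500 bp, and 84.2% and 97.4% at 1000 bp, by construction of the limit. The share of sites in all 4 lists also depended on this distance. It was 36 of 137 sites at 100 bp, 46 of 115 at 250 bp, 50 of 96 at 500 bp and 50 of 84 at 1000 bp.

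With gene ends within 250 bp, 27 sites were in all 4 lists and the genes with a summit were 25.2%, 23.2%, 26.8% and 25.8% (RT7 EtOH, RT7 4-OHT, RT10 EtOH, RT10 4-OHT). Clustered genes then had 25.6%, 25%, 27.8% and 27.8%, and lone genes in RT10 4-OHT 22.9%. With 1000 bp, clustered genes in RT7 4-OHT had 45.0%.

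A score of at least 10 moved most values, and the cause was not tested beyond the smaller number of summits. RT7 4-OHT had 33 tRNA gene summits and RT10 4-OHT 52, sites fell to 74 and those in all 4 lists to 26. In RT7, 50.9% of EtOH summits were kept (lone genes 41.2%, clustered genes 55.6%), against 38.3% of all. Genes with a summit were 27.2%, 18.8%, 28.5% and 25.8%, lone genes 20.3%, 11.9%, 21.2% and 22.0%, and clustered genes in the 4-OHT lists 23.3% (RT7) and 28.3% (RT10). Equal list lengths, any tRNA gene end within 500 bp and cluster limits of 2 and 10 kb moved none of these values out of range. Counting over merged sites could not move the kept shares, as no list had more than 1 summit in a site. Equal lengths moved the 4 counts of sites missing from 1 list, given above. Any tRNA gene end moved that for RT10 4-OHT, to 4. A score of at least 10 also moved 3 of those 4 counts, to 2 (RT7 EtOH), 0 (RT10 EtOH) and 0 (RT10 4-OHT), and the sites with any summit in all 4 lists to 29. In all, 142 of the recomputed values stayed in range, among them the 2 over merged sites, and 42 moved. Depth is unknown, so absence of a summit is not absence of TBP.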
